A study of Mus musculus with 36 samples.

Results

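The genes described here are 10 regulators of ubiquitin-dependent NF-kB signalling, taken by symbol from the 52636 genes counted in the series. They were Tnfaip3, encoding A20, its binding partners Tnip1, Tnip2 and Tnip3, the deubiquitinase gene Cyld, the adaptor genes Traf1, Traf2 and Traf3, and the cellular inhibitor of apoptosis genes Birc2 and Birc3. All 10 of 10 passed the filter on low counts, among 13748 genes tested, and the lowest count of any of them in a library was 80 reads. Transcripts were sequenced from macrophages grown in M-CSF out of bone marrow of N4bp1 KO and WT mice, whose ages are not given. Macrophages of each genotype received R837 (imiquimod, an agonist of Toll-like receptor 7) for 3 h, for 3 h followed by actinomycin D (ActD, a blocker of transcription) for 0.5, 1, 2 or 4 h, or for 7 h with no ActD. The 12 groups held 3 libraries each, from macrophages of 3 individual mice, 36 in all. The culture protocol in the labels names C57BL/6N for wild-type mice, and gives neither the form of the N4bp1 deletion nor the strain of the KO mice. All groups had received R837, and unstimulated macrophages were not analysed here.

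Toll-like receptors and the TNF receptor activate NF-kB through chains of ubiquitin that are built on adaptor proteins. TRAF2 brings the ubiquitin ligases cIAP1 (Birc2) and cIAP2 (Birc3) to receptor complexes. These proteins and TRAF3 keep the kinase NIK low, which holds back the non-canonical branch of NF-kB. A20 edits ubiquitin chains and CYLD removes them, and the TNIP proteins (also called ABINs) bind ubiquitin and dock A20 on its targets. Several of these genes, with Tnfaip3 and Birc3 the best known, are themselves NF-kB targets, so that they form feedback loops. N4BP1 is an RNA- and ubiquitin-binding protein known to restrain NF-kB-dependent responses in macrophages.

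The genes lie on different chromosomes, other than 2 pairs (GRCm38, GENCODE M21). Tnfaip3 spans chr10:19000910-19015657 on the minus strand, Tnip1 chr11:54910785-54962917 (minus), Tnip2 chr5:34496087-34513991 (minus), Tnip3 chr6:65525313-65634040 (plus) and Cyld chr8:88697028-88751945 (plus). Traf1 at chr2:34941750-34961772 and Traf2 at chr2:25517982-25546940 are both on the minus strand of chromosome 2, and Traf3 is at chr12:111166370-111267153 (plus). Birc2 at chr9:7818227-7837064 and Birc3 at chr9:7848699-7873186 are neighbours on the minus strand of chromosome 9. No exon of the 10 genes shared bases with another annotated gene. At the read length of 50 bases, 7.56% of the distinct 50-base stretches of Birc3 transcripts were also found in other genes, Birc2 among them, against 1.49% for Birc2 and at most 1.79% for each of the other 8 genes.

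The promoters are shown because NF-kB target genes are among the 10 and the text below compares how they moved. RefSeq promoters (GRCm38.p6, 250 bases before to 50 after the start) were found for 10 of 10 genes. The NF-kB consensus motif, searched on both strands and allowing overlaps, was in the first promoter of 5 of them. It was present in 8.46% of 32851 promoters of the same length, and 9.55% of 27025 genes had it in at least 1 promoter. Tnfaip3 held it at 125 and at 12 bases before the start, Tnip1 at 58 (a stretch of 12 bases with 4 overlapping matches), Tnip3 at 54, Cyld at 155 and Traf3 at 10. A match is a description of the letters and not of binding, and Traf1, Traf2, Tnip2, Birc2 and Birc3 had no match in this window. The sequences of the matching promoters and of the Traf1 promoter, a gene without a match and with a KO to WT difference in every condition, read 5′ to 3′ with the motif in capitals.
Tnfaip3 (chr10:19015361-19015660, minus strand): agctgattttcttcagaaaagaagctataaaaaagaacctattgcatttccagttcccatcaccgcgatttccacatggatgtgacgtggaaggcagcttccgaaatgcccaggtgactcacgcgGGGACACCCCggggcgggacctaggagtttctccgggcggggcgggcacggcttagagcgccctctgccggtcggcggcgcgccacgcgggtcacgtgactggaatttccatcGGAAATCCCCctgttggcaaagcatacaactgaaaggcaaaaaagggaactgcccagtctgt
Tnip1 (chr11:54962891-54963190, minus strand): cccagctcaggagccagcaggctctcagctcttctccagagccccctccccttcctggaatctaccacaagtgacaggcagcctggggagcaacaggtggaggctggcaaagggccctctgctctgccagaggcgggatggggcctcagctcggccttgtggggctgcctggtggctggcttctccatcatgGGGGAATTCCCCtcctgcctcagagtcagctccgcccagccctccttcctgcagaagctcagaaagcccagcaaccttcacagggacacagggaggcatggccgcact
Tnip3 (chr6:65590148-65590447, plus strand): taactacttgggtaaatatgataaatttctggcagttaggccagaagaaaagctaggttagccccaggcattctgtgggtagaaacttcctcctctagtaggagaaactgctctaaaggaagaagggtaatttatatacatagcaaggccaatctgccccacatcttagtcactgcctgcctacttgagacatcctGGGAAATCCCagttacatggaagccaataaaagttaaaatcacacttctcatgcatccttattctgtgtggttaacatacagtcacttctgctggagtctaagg
Cyld (chr8:88696778-88697077, plus strand): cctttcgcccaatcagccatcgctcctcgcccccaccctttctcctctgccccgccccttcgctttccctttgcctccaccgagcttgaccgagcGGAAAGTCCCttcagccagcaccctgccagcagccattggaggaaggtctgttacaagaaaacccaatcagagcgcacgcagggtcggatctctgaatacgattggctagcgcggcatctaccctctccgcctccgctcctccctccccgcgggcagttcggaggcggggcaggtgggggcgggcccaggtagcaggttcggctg
Traf3 (chr12:111166120-111166419, plus strand): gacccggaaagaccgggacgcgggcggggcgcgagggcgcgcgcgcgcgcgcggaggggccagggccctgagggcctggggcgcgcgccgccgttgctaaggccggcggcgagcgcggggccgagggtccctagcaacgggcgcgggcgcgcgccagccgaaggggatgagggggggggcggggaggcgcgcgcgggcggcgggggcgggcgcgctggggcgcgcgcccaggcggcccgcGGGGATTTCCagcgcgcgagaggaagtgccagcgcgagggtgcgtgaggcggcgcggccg
Traf1 (chr2:34961723-34962022, minus strand): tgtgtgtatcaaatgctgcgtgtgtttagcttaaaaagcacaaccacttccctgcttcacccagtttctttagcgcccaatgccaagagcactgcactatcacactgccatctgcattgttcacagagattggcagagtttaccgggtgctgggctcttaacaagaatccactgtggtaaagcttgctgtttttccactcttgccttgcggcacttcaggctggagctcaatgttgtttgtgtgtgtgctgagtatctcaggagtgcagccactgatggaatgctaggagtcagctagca

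The 3′ untranslated regions are described because ActD was used to follow the loss of transcripts. In the transcript of each gene with the longest coding sequence in GENCODE M21, TATTTAT, an AU-rich element heptamer (given strand only), occurred 2 times in Tnfaip3 (1821 bases), 2 times in Cyld (4932 bases), 2 times in Traf3 (5088 bases) and 1 time in Birc3 (564 bases). It was absent from the other 6 genes, and 27.31% of 19648 untranslated regions of at least 100 bases held it. The shorter ATTTA, which overlaps the heptamer, was densest in Birc3, at 7.09 per kb, against a median of 1.307 per kb over all genes. It occurred 5 times in Tnfaip3, 12 times in Cyld, and not at all in Traf2, Tnip1 and Tnip3. A site of each of the 2 NF-kB feedback genes is given with the heptamer in capitals, at base 1680 after the stop codon of Tnfaip3 (chromosome 10) and at base 465 of Birc3 (chromosome 9).
Tnfaip3: gtgaaatggtTATTTATacttatagaa
Birc3: aaattcctgtTATTTATtggatgacat

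Libraries held 20.3 to 46.1 M gene counts (median 26.3 M). N4bp1 itself was reduced rather than absent in KO, at 81.3 to 86.0 CPM (the read count scaled to the TMM-normalized library size) in KO and 125.4 to 147.2 CPM in WT at 3 h of R837, and lower in KO also after 0.5 and 1 h of ActD and at 7 h of R837. After 2 h of ActD the groups overlapped, at 81.9 to 88.1 CPM in libraries labelled KO and 74.7 to 89.2 CPM in libraries labelled WT. After 4 h of ActD it was higher in libraries labelled KO, at 76.8 to 94.2 CPM, against 53.4 to 63.3 CPM in libraries labelled WT (log2 fold change 0.61 ± 0.08, edgeR adjusted p = 8.87e-08). The transcript of N4bp1 thus did not mark the genotype at 2 h and 4 h of ActD, which bears on every direction given for those conditions. All 10 macrophage markers were present, with summed levels of 20568 to 51534 CPM. Summed markers of some other cell types differed between genotypes, neutrophil markers at 7 h but with overlap at 3 h. The summed fibroblast and stromal markers (10 genes, of which 8 of the 9 tested were higher in KO at 3 h and at 7 h) were at 53.2 to 60.2 CPM in KO and 27.9 to 34.4 CPM in WT at 3 h, and at 51.0 to 55.2 CPM in KO and 28.3 to 31.2 CPM in WT at 7 h. At 2 h and 4 h of ActD the same sum was at 59.4 to 72.5 and 62.9 to 63.8 CPM in libraries labelled KO and 31.5 to 39.1 and 30.8 to 33.4 CPM in libraries labelled WT. B and plasma cell markers (9 genes) summed to 181.1 to 194.8 CPM in KO and 91.1 to 100.9 CPM in WT at 3 h, and to 137.4 to 141.7 CPM in KO and 64.2 to 75.2 CPM in WT at 7 h. At 2 h of ActD this sum was 174.1 to 187.3 CPM in libraries labelled KO and 78.0 to 90.0 CPM in libraries labelled WT. At 4 h of ActD it was 147.4 to 150.6 CPM in libraries labelled KO and 56.2 to 66.4 CPM in libraries labelled WT. Neutrophil markers (10 genes) were at 639.9 to 756.1 CPM in KO and 642.4 to 740.8 CPM in WT at 3 h, and at 888.5 to 927.6 CPM in KO and 599.2 to 619.5 CPM in WT at 7 h. Over all libraries S100a8 reached 563.4 CPM and S100a9 500.0 CPM, and Ly6g at most 0.49 CPM. Dendritic cell markers (8 genes) were at 49.9 to 52.1 CPM in KO and 38.6 to 44.3 CPM in WT at 3 h, and at 52.8 to 56.9 CPM in KO and 37.1 to 38.7 CPM in WT at 7 h. Among them Itgax reached 35.0 CPM and Ccr7 33.1 CPM, while Clec9a reached at most 1.87 CPM and Xcr1 0.20 CPM. T and NK cell markers summed to at most 8.71 CPM and mast cell and basophil markers to at most 6.48 CPM in any library, with Mcpt4 at 0 in 36 of 36. The part of these cells in the results below was not tested, and in bulk RNA a larger number of cells and more RNA per cell cannot be told apart.

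Transcripts of 6 of the 10 genes were higher in KO than in WT after 3 h of R837, namely Tnfaip3, Tnip1, Traf1, Traf3, Birc2 and Birc3. At 7 h it was 8 of 10, as Tnip2 and Traf2 joined. None passed in the lower direction at either time (edgeR quasi-likelihood test, Benjamini-Hochberg adjusted p below 0.05). At an unadjusted p below 0.05, 1 gene was lower at 3 h (Tnip3) and 0 at 7 h, and DESeq2 likewise called 0 lower at both times. Of all genes tested, 15.2% were called higher and 12.6% lower in KO at 3 h (27.8% in either direction), and 15.5% higher and 15.1% lower at 7 h (30.6% in either). The median log2 fold change of the 10 genes, KO minus WT, was 0.42 at 3 h and 0.51 at 7 h, beside 0.01 and -0.01 over all genes tested. The genes that differed the most were Traf1 and Tnfaip3, and Cyld passed at no time. A scaling on ribosomal and elongation factor genes moved all genes up by a median of 0.20 at 3 h, with 3850 genes higher and 417 lower in KO in place of 2088 and 1730, and called 9 of the 10 genes higher and 0 lower. At 7 h it moved all genes by 0.0007 and called 7 of the 10 genes higher and 0 lower. Of all genes it called 1573 higher and 1741 lower at 7 h, in place of 2126 and 2075.

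With ActD added after 3 h of R837, the number higher in KO was 7 of 10 at 0.5 h, 6 at 1 h, 5 at 2 h and 7 at 4 h. The share of all genes called higher was 13.7% at 0.5 h, 7.51% at 1 h, 14.7% at 2 h and 17.7% at 4 h, and the share called in either direction was 26.4%, 17.4%, 30.2% and 35.6% at these times. Tnip3 was the only 1 of the 10 called lower, at 2 h and at 4 h, where 15.4% and 17.9% of all genes were. No gene of the 10 was lower at 0.5 h or 1 h, where 12.7% and 9.92% of all genes were, in edgeR at an adjusted or an unadjusted p below 0.05 or in DESeq2. At 0.5 h Tnip3 passed in the lower direction without the filter (-0.18, edgeR adjusted p = 0.0419) and without WT replicate 1 (-0.30, adjusted p = 0.00908). Median log2 fold changes of the 10 genes were 0.46, 0.20, 0.28 and 0.52 at 0.5, 1, 2 and 4 h of ActD, beside -0.02, -0.02, -0.02 and 0.00 over all genes. The ribosomal scaling shifted these contrasts by 0.13, -0.13, 0.15 and 0.28, and called 7, 4, 7 and 9 of the 10 genes higher and 0, 1, 1 and 1 lower, each time Tnip3. It gave 2277 genes higher and 598 lower at 0.5 h in place of 1883 and 1743, 440 and 2114 at 1 h in place of 1032 and 1364, 2653 and 781 at 2 h in place of 2023 and 2123, and 4966 and 609 at 4 h in place of 2439 and 2457. With the trend with gene length removed, 1320 genes were higher and 994 lower at 1 h.

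**Figure D1:**
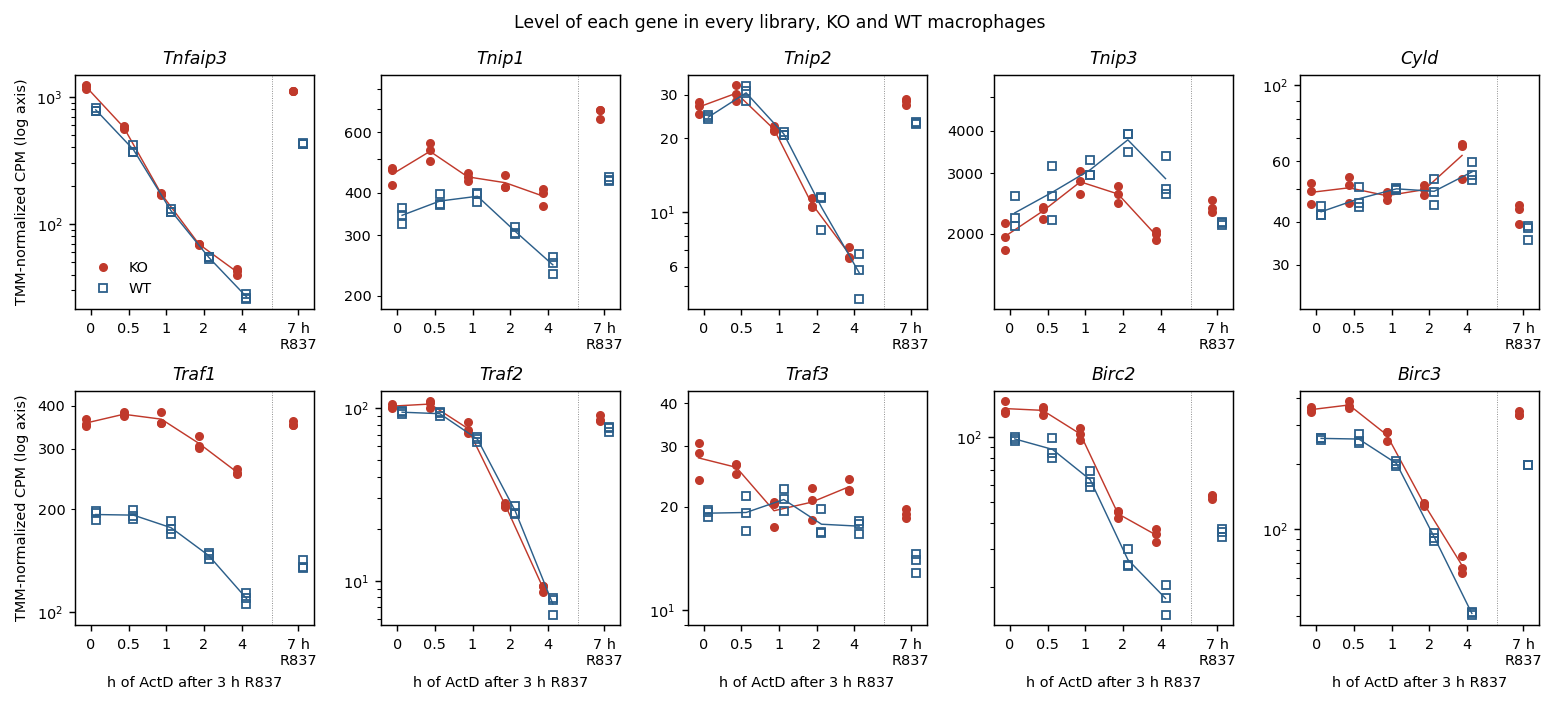
TMM-normalized CPM (log axis) of each gene in all 36 libraries, against hours of ActD after 3 h of R837 (evenly spaced, not to scale) and at 7 h of R837 without ActD at the right of each panel. Filled circles are KO and open squares WT libraries (3 each), and lines join the group means; Traf1 in KO lies above WT in every condition, and Tnfaip3 drops to 39.6 to 43.9 CPM in KO and 25.8 to 28.0 CPM in WT after 4 h of ActD.

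**Figure D2:**
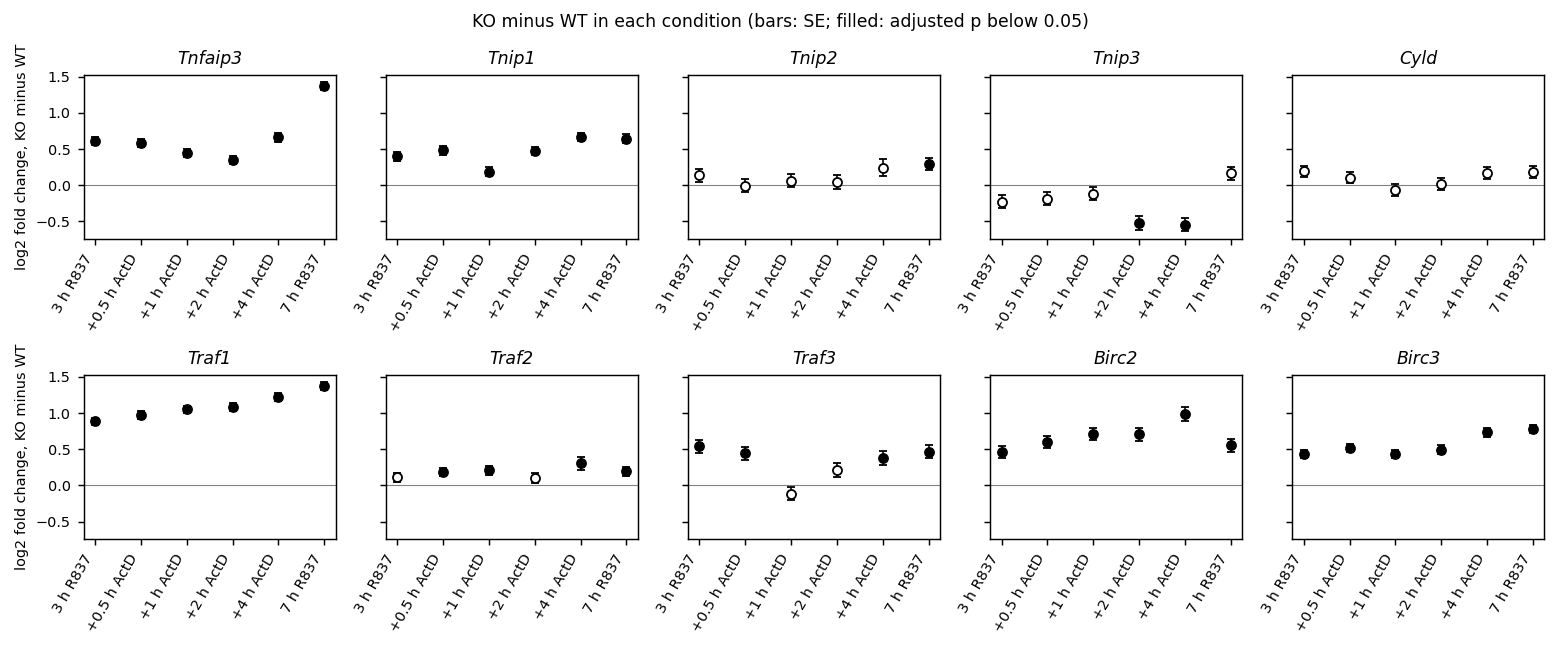
Log2 fold change, KO minus WT, of each gene in the 6 conditions, with bars for the SE and filled points for an edgeR adjusted p below 0.05 (3 KO and 3 WT libraries per condition). Tnfaip3 and Traf1 reach 1.37 at 7 h of R837, and Tnip3 lies at -0.52 and -0.55 after 2 h and 4 h of ActD.

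Tnfaip3 encodes A20, the ubiquitin-editing enzyme that ends NF-kB signalling. At 3 h of R837 it stood at 1227, 1235 and 1148 CPM in the 3 KO libraries, against 777.5, 824.0 and 768.1 CPM in WT. At 7 h Tnfaip3 was at 1105, 1119 and 1106 CPM in KO, against 433.1, 425.6 and 427.3 CPM in WT. The groups did not overlap at either time, and at 7 h the WT libraries stood lower than at 3 h while no KO library was below 1105 CPM. The log2 fold change, KO minus WT, was 0.61 ± 0.05 at 3 h (1.52-fold, edgeR adjusted p = 1.65e-11) and 1.37 ± 0.05 at 7 h (2.59-fold, adjusted p = 9.17e-23). During ActD the level fell steeply in both genotypes. It was at 562.6 to 587.2 CPM in KO and 366.7 to 418.4 CPM in WT after 0.5 h, and at 170.1 to 174.2 CPM in KO and 124.2 to 131.0 CPM in WT after 1 h. After 4 h, 39.6 to 43.9 CPM were left in libraries labelled KO and 25.8 to 28.0 CPM in libraries labelled WT. Tnfaip3 was higher in KO at every ActD time, with log2 fold changes between 0.35 ± 0.06 (2 h) and 0.66 ± 0.06 (4 h). It was the only member whose 12 groups were all apart from their neighbours in level: the 2 KO groups without ActD came first, then WT at 3 h, KO after 0.5 h of ActD, WT at 7 h and WT after 0.5 h of ActD, and below them the 1, 2 and 4 h ActD groups in order, KO above WT each time. The highest group mean was 45.1 times the lowest.

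The TNIP genes encode ubiquitin-binding partners of A20, and they did not move alike. Tnip1 (ABIN-1) stood at 465.7, 472.7 and 420.3 CPM in KO at 3 h, against 324.5, 361.3 and 344.7 CPM in WT. At 7 h Tnip1 was at 655.9, 695.4 and 698.6 CPM in KO, against 433.8, 443.0 and 436.9 CPM in WT. KO lay above WT at both times without overlap (log2 fold change 0.40 ± 0.06, edgeR adjusted p = 2.87e-06 at 3 h, and 0.64 ± 0.06, adjusted p = 1.81e-11 at 7 h). Tnip1 was also higher in KO after 0.5, 2 and 4 h of ActD, by 0.48, 0.47 and 0.67 on the log2 scale. The difference at 1 h of ActD was smaller (0.19 ± 0.06, adjusted p = 0.0238), and its adjusted p was 0.0957, 0.0534 and 0.11 without KO replicate 1, KO replicate 2 or WT replicate 3. Under the ribosomal scaling it was 0.05 (adjusted p = 0.751).

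Tnip2 (ABIN-2, known to bind the kinase TPL2) was a low transcript, at 28.0, 27.1 and 25.1 CPM in KO and 24.27, 24.04 and 24.78 CPM in WT at 3 h of R837. By 7 h Tnip2 stood at 28.2, 29.0 and 27.4 CPM in KO, against 22.9, 23.0 and 23.2 CPM in WT. Only the difference at 7 h passed, among the 6 conditions (log2 fold change 0.29 ± 0.09, edgeR adjusted p = 0.00796), and the 7 h groups did not overlap. At 3 h it was 0.14 ± 0.09 (adjusted p = 0.246), and 0.34 (adjusted p = 0.00751) under the ribosomal scaling.

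Tnip3 (ABIN-3) had the highest level per kb of the 10 genes, and its difference between genotypes changed sign among the conditions. It stood at 1795, 1955 and 2145 CPM in KO at 3 h, against 2105, 2217 and 2582 CPM in WT, with overlap (log2 fold change -0.23 ± 0.09, edgeR adjusted p = 0.0613; -0.23 and 0.00533 without the filter, -0.30 and 0.0239 without KO replicate 3, -0.29 and 0.0361 without WT replicate 1). After 2 h of ActD it was at 2609, 2463 and 2766 CPM in libraries labelled KO, against 3465, 3901 and 3911 CPM in libraries labelled WT. After 4 h it was at 1921, 1994 and 2040 CPM in libraries labelled KO, against 2700, 2621 and 3372 CPM in libraries labelled WT. At these 2 times the groups were apart, with libraries labelled KO lower by log2 fold changes of -0.52 ± 0.09 (adjusted p = 3.26e-05) and -0.55 ± 0.09 (adjusted p = 1.41e-05). At 7 h of R837 it was at 2381, 2507 and 2322 CPM in KO, against 2159, 2149 and 2123 CPM in WT. KO lay above WT there without overlap, while the difference of 0.16 ± 0.09 did not pass (adjusted p = 0.188), and it passed when the 6 libraries were fitted alone (0.17, adjusted p = 3.51e-06).

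Cyld, which encodes a deubiquitinase that removes chains from NF-kB signalling proteins, varied little. It stood at 52.0, 44.9 and 49.3 CPM in KO at 3 h, against 41.9, 44.4 and 42.0 CPM in WT, and at 44.8, 43.6 and 39.3 CPM in KO at 7 h, against 38.3, 35.4 and 38.8 CPM in WT. KO lay above WT at both times by a narrow margin. The log2 fold changes were 0.19 ± 0.08 at 3 h (edgeR adjusted p = 0.075) and 0.18 ± 0.08 at 7 h (adjusted p = 0.0846). None of the 4 ActD times passed, with log2 fold changes of -0.07 to 0.16. Cyld passed in a few alternative settings: at 3 h without KO replicate 2 (0.24, adjusted p = 0.0476) and under the ribosomal scaling (0.39, adjusted p = 0.0167), at 4 h of ActD without the library labelled KO replicate 2 (0.27, adjusted p = 0.00971) and under that scaling (0.43, adjusted p = 0.00569), and at 7 h without KO replicate 3 (0.24, adjusted p = 0.0486) and with the 6 libraries alone (0.19, adjusted p = 0.00336). Other settings moved the Cyld difference down. Across all alternative settings it was 0.04 to 0.39 at 3 h and 0.09 to 0.24 at 7 h. At 4 h of ActD it was -0.02 to 0.43. The highest group mean of Cyld was 1.66 times the lowest, the smallest range of the 10 genes.

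Among the adaptors, Traf1 differed the most between genotypes. TRAF1 lacks the RING domain of its relatives and binds cIAP2 with TRAF2. Traf1 stood at 348.6, 365.9 and 354.7 CPM in KO at 3 h of R837, against 194.7, 197.3 and 186.3 CPM in WT. At 7 h Traf1 was at 352.7, 360.6 and 351.3 CPM in KO, against 141.6, 135.2 and 134.2 CPM in WT. Every KO library of every condition lay above every WT library, since the lowest KO value was 252.8 CPM (4 h of ActD) and the highest WT value 198.6 CPM (0.5 h of ActD). The log2 fold change was 0.89 ± 0.05 at 3 h (1.85-fold, edgeR adjusted p = 2.38e-16) and 1.37 ± 0.05 at 7 h (2.59-fold, adjusted p = 5.26e-23). Across 0.5, 1, 2 and 4 h of ActD it was 0.98, 1.05, 1.09 and 1.23. Traf1 is also expressed in activated B cells, and the summed B and plasma cell markers were likewise higher in KO; their part in this difference was not tested.

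Traf2, the adaptor that carries cIAP1 and cIAP2, was nearly level between genotypes. At 3 h it stood at 100.5, 105.8 and 101.7 CPM in KO and 92.9, 96.1 and 95.0 CPM in WT (log2 fold change 0.12 ± 0.06, edgeR adjusted p = 0.16). At 7 h Traf2 was at 90.7, 85.4 and 84.1 CPM in KO, against 76.6, 72.5 and 77.7 CPM in WT (0.20 ± 0.06, adjusted p = 0.0127). The groups did not overlap at either time, with a gap of a few CPM. The call at 7 h was lost without KO replicate 1 (adjusted p = 0.0846), without WT replicate 2 (0.0789), without the filter (0.116) and under the ribosomal scaling (0.067). Traf2 was also called higher in KO after 0.5, 1 and 4 h of ActD (0.19, 0.21 and 0.30), and each of these calls was lost on leaving out 1 library: KO replicate 2 or 3 or WT replicate 2 at 0.5 h (adjusted p up to 0.098), KO replicate 1 or WT replicate 3 at 1 h (up to 0.161) and WT replicate 1 at 4 h (0.0648).

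Traf3, which restrains NIK and the non-canonical branch, was a low transcript. At 3 h it stood at 30.7, 28.6 and 23.9 CPM in KO, against 19.3, 19.5 and 18.6 CPM in WT. At 7 h Traf3 was at 18.6, 19.6 and 19.0 CPM in KO, against 14.0, 14.5 and 12.8 CPM in WT. KO was higher at both times without overlap (0.54 ± 0.09, edgeR adjusted p = 2.21e-05, and 0.47 ± 0.10, adjusted p = 0.000145). The difference was not seen after 1 h of ActD, where Traf3 was at 17.5 to 20.6 CPM in KO and 19.4 to 22.5 CPM in WT (-0.11 ± 0.09, adjusted p = 0.46). At 2 h it was 0.22 ± 0.10 (adjusted p = 0.0836), and it passed at 0.5 h (0.44) and 4 h (0.39). The 2 h difference passed without KO replicate 1 (0.30, adjusted p = 0.0315) or WT replicate 3 (0.29, adjusted p = 0.0403).

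Birc2 and Birc3 encode cIAP1 and cIAP2, the ubiquitin ligases of the TNF receptor complex. Birc2 stood at 129.1, 131.7 and 146.7 CPM in KO at 3 h, against 96.1, 97.6 and 100.5 CPM in WT, and at 53.9, 53.0 and 51.7 CPM in KO at 7 h, against 34.4, 36.2 and 37.3 CPM in WT. Birc3 stood at 344.4, 364.8 and 351.3 CPM in KO at 3 h, against 262.6, 262.6 and 257.4 CPM in WT, and at 348.2, 332.9 and 332.8 CPM in KO at 7 h, against 197.9, 196.6 and 196.3 CPM in WT. For both genes KO lay above WT without overlap in all 6 conditions. Log2 fold changes of Birc2 were 0.47 ± 0.08 at 3 h (edgeR adjusted p = 3.73e-05) and 0.56 ± 0.09 at 7 h (adjusted p = 1.87e-06), and those of Birc3 were 0.44 ± 0.06 at 3 h (adjusted p = 1.61e-07) and 0.78 ± 0.06 at 7 h (adjusted p = 1.82e-14). Over 0.5, 1, 2 and 4 h of ActD the Birc2 difference was 0.60, 0.71, 0.71 and 0.99, and the Birc3 difference was 0.52, 0.44, 0.49 and 0.73. After 4 h of ActD, 32.4 to 37.5 CPM of Birc2 were left in libraries labelled KO and 14.9 to 20.6 CPM in libraries labelled WT.

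From the earlier to the later R837 time, some of these genes fell in both genotypes, Birc2 the most, and the change differed between genotypes for others. At 7 h relative to 3 h in KO, 2 of 10 were higher and 4 lower, where 28.7% and 31.7% of all genes were (60.4% in either direction). In WT, 1 was higher and 7 were lower, where 27.3% and 30.7% of all genes were (58% in either). Birc2 fell the most in both genotypes, with log2 fold changes, 7 h minus 3 h, of -1.36 ± 0.08 in KO and -1.45 ± 0.09 in WT. Tnip1 rose in both, by 0.59 ± 0.06 in KO and 0.35 ± 0.06 in WT, and Traf3 (-0.54 in KO, -0.47 in WT) and Traf2 (-0.24 in KO, -0.32 in WT) fell in both. Cyld fell by 0.20 in KO and 0.19 in WT (edgeR adjusted p = 0.0349 and 0.0427), and both calls were lost without 1 of several libraries: in KO, 7 h replicate 2 or 3 or 3 h replicate 1 or 3 (adjusted p up to 0.185), and in WT, 7 h replicate 1 or 2 or any 3 h replicate (up to 0.167). Both were also lost with RLE scaling, without the filter, on removal of the length trend, and by DESeq2 (adjusted p = 0.06 in KO and 0.136 in WT). The WT call was lost under the ribosomal scaling too (edgeR adjusted p = 0.592). DESeq2 called 3 of the 10 genes lower in KO and 6 in WT. The share of all genes called was not counted for DESeq2, here or in the other comparisons.

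The genotypes differed in this change for 4 of the 10 genes, each with the higher value in KO, where 5.45% of all genes were called in that direction, 6.84% in the other and 12.3% in either. Tnfaip3 fell by 0.88 ± 0.05 in WT and had a change of -0.12 ± 0.05 in KO (adjusted p = 0.0547; -0.15 and 0.0273 without KO 3 h replicate 3). The KO change minus the WT change was 0.77 ± 0.07 (edgeR adjusted p = 3.36e-10). Traf1 fell by 0.49 in WT and had a change of -0.01 in KO (difference 0.49 ± 0.07, adjusted p = 3.6e-06). Birc3 fell by 0.41 in WT and had a change of -0.06 in KO (difference 0.34 ± 0.08, adjusted p = 0.00225). Tnip3 rose by 0.29 ± 0.09 in KO and had a change of -0.10 ± 0.09 in WT (difference 0.39 ± 0.13, adjusted p = 0.0403). The Tnip3 difference passed only in part of the settings: leaving out 1 library gave 0.30 to 0.46, and 8 of 12 such fits lost the call, with an adjusted p up to 0.173 (without WT 3 h replicate 3). Its rise in KO had an adjusted p of 0.0558 without KO 3 h replicate 1. Tnip1 missed the threshold (0.24 ± 0.08, adjusted p = 0.0521) and passed by DESeq2 (0.22, adjusted p = 0.0345). No gene of the 10 had a lower change in KO, by edgeR at an adjusted or unadjusted p below 0.05 or by DESeq2, which called Tnfaip3, Traf1, Birc3 and Tnip1 higher and not Tnip3 (0.36, adjusted p = 0.0699). Under the ribosomal scaling 1 of the 4 calls was left, Tnfaip3 (0.56), with Traf1 at 0.29 (adjusted p = 0.0829) and Birc3 at 0.14 (adjusted p = 0.51). That scaling shifted the contrast by a median of -0.20 and gave 259 genes higher and 1529 lower, in place of 749 and 941.

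**Figure D3:**
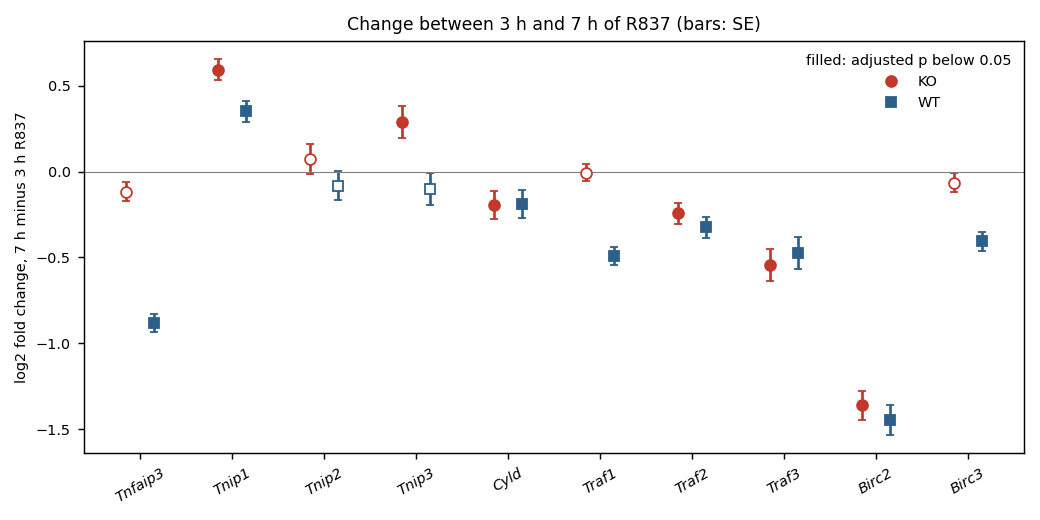
Log2 fold change, 7 h minus 3 h of R837, in KO (circles) and WT (squares), with bars for the SE and filled points for an edgeR adjusted p below 0.05 (3 libraries per group). Tnfaip3 lies at -0.12 in KO and -0.88 in WT, and Birc2 is the lowest gene in both genotypes.

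The 10 transcripts differed in how much was left under ActD. Tnfaip3 was nearly lost after 4 h, while Cyld and Tnip3 ended at or above their CPM at 3 h of R837. Under the ribosomal scaling both ended below it, where the fall of Tnip3 passed and that of Cyld did not. In CPM, Traf1, Tnip1 and Traf3 lay between. Values are percent of the mean CPM at 3 h of R837 (mean ± SD, n = 3) and are relative to all transcripts, since total RNA can fall under ActD and no spike-in was used here. Tnfaip3 was lost first, with 48.0 ± 1.07% left in KO and 48.7 ± 3.74% in WT after 0.5 h, 14.3% in KO and 16.0% in WT after 1 h, and 3.50 ± 0.19% in KO and 3.38 ± 0.14% in WT after 4 h. Traf2, Tnip2, Birc2 and Birc3 were still at 89.4 to 125.5% after 0.5 h and dropped later. After 2 h, Traf2 was at 26.7% in KO and 26.8% in WT, Birc2 at 32.4% in KO and 27.4% in WT, Birc3 at 36.7% in KO and 35.3% in WT, and Tnip2 at 40.5% in KO and 43.0% in WT, by the libraries' labels. After 4 h, Traf2 was at 8.86 ± 0.45% in KO and 7.76 ± 0.91% in WT, and Birc3 at 19.3 ± 1.79% in KO and 15.8 ± 0.22% in WT. Birc2 was at 25.8 ± 1.91% in KO and 18.1 ± 2.91% in WT, and Tnip2 at 25.3 ± 1.43% in KO and 23.3 ± 4.72% in WT. Traf1 and Tnip1 were lost slowly, with 72.0 ± 1.33% of Traf1 left in KO and 56.9 ± 2.07% in WT, and 86.3 ± 4.99% of Tnip1 left in KO and 71.7 ± 4.07% in WT. Traf3 stood at 82.5% in KO and 91.6% in WT. Tnip3 reached 144.3% in KO at 1 h and 163.3% in WT at 2 h, and was at 101.0% in KO and 125.9% in WT at 4 h, and Cyld was at 128.1% in KO and 130.7% in WT.

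**Figure D4:**
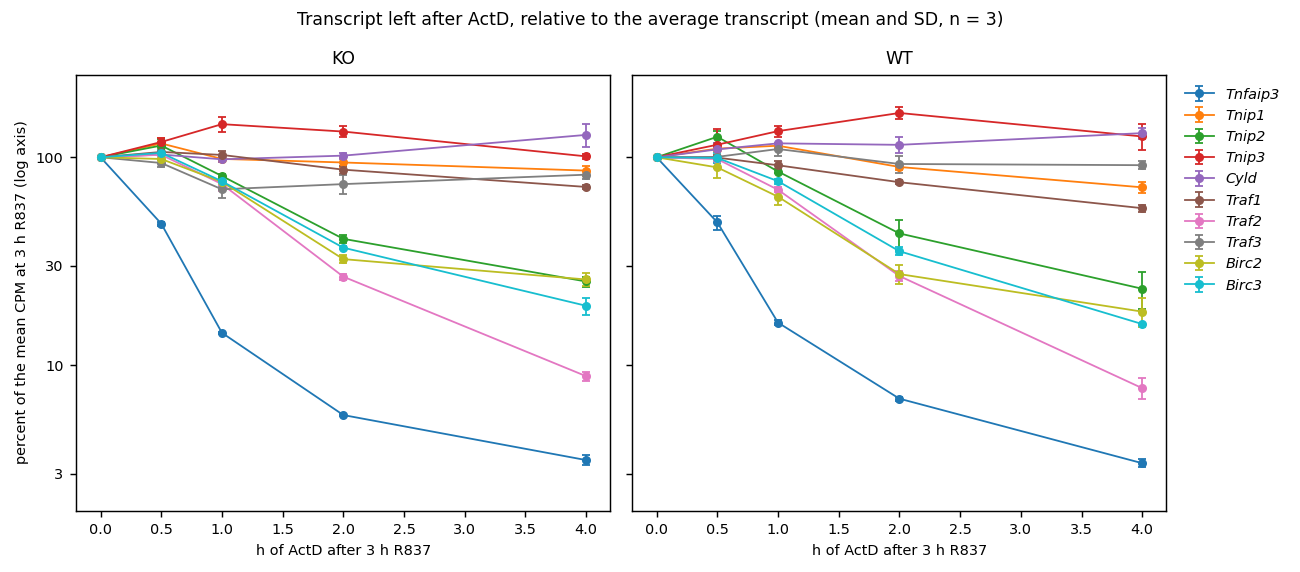
Percent of the mean 3 h R837 CPM left after 0.5, 1, 2 and 4 h of ActD, relative to the average transcript (log axis), in KO at the left and WT at the right (mean and SD of 3 libraries). Tnfaip3 is the lowest curve at every time, at 3.50% in KO and 3.38% in WT after 4 h, and Cyld and Tnip3 end at or above 100% (below it under the ribosomal scaling, where the Cyld fall did not pass).

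After the first 0.5 h of ActD few genes had moved. In KO, 1 of the 10 was higher and 1 lower than without ActD, where 3.1% and 4.34% of all genes were (7.43% in either direction), and in WT again 1 and 1, where 3.7% and 3.51% were (7.22% in either). The ribosomal scaling gave 64 genes higher and 486 lower in KO in place of 426 and 596, and 102 and 269 in WT in place of 509 and 483. Tnfaip3 was the one that fell, by 1.06 ± 0.05 in KO and 1.04 ± 0.05 in WT on the log2 scale. Tnip1 rose by 0.22 ± 0.06 in KO (edgeR adjusted p = 0.0145; 0.133 without KO 3 h replicate 3 and 0.128 without KO 0.5 h replicate 3), and Tnip2 rose by 0.33 ± 0.09 in WT (adjusted p = 0.0112; 0.0884 without WT 0.5 h replicate 2). By 4 h, 1 of the 10 was higher and 8 lower in KO, where 31.2% and 36.7% of all genes were (68% in either direction), and 2 higher and 7 lower in WT, where 31.9% and 36.6% were (68.5% in either). The log2 fold change, 4 h of ActD minus none, was -4.84 ± 0.06 in KO and -4.89 ± 0.06 in WT for Tnfaip3, and -3.50 ± 0.07 in KO and -3.68 ± 0.08 in WT for Traf2. Cyld rose by 0.36 ± 0.08 in KO and 0.39 ± 0.08 in WT. Under the ribosomal scaling its sign turned and neither value passed (-0.18 in KO and -0.22 in WT, edgeR adjusted p = 0.211 and 0.12). That scaling moved all genes by a median of -0.53 in KO and -0.61 in WT. It gave 674 genes higher and 8245 lower in KO, in place of 4293 and 5049, and 697 and 8628 in WT, in place of 4387 and 5027. Tnip3 rose by 0.33 ± 0.09 in WT (-0.29 under that scaling) and stood at 0.01 ± 0.09 in KO (-0.52 under that scaling). Traf3 fell by 0.28 ± 0.09 in KO (adjusted p = 0.0777 without KO 3 h replicate 1), and its sign turned on removal of the trend with gene length (0.30 in KO, and 0.49 in WT against -0.12). Under the ribosomal scaling Traf3 fell in WT too (-0.73, edgeR adjusted p = 1.19e-05), so its direction depended on the scaling. That scaling called 0 of the 10 genes higher and 9 lower in KO, and likewise 0 and 9 in WT.

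Straight lines over 0 to 4 h of ActD gave slopes below 0 that passed for 7 of the 10 genes in each genotype, where 35.9% of all genes in KO and 35% in WT had one; slopes above 0 passed for 1 gene (Cyld) in KO, where 32.7% of all genes did, and 2 (Cyld and Tnip3) in WT, where 35.8% did, and 68.6% and 70.9% passed in either direction. The ribosomal scaling moved all slopes by a median of -0.14 in KO and -0.19 in WT, with 698 genes above 0 and 7857 below in KO in place of 4369 and 4809, and 681 and 9035 in WT in place of 4795 and 4687, and turned Cyld in both and Tnip3 in WT. It called 0 of the 10 genes above 0 in either genotype, 9 below in KO and 10 below in WT. Tnip3 (-0.16 in KO and -0.10 in WT) and Traf3 (-0.19 in KO and -0.22 in WT) passed below 0 there. Cyld passed in WT (-0.09, edgeR adjusted p = 0.0356) and not in KO (-0.04, 0.289). Removal of the trend with gene length instead put the Traf3 slopes above 0 (0.09 in KO and 0.12 in WT). The Tnip3 slope in WT (0.10 ± 0.04 log2 per h, adjusted p = 0.0322) was lost in 8 of 30 fits that left out 1 library, WT 4 h replicate 3 with the highest adjusted p (0.148). With TMM, the slopes below 0 that passed were those of Tnfaip3, Tnip1, Tnip2, Traf1, Traf2, Birc2 and Birc3 in both genotypes. The Tnip1 slope in KO did not pass on removal of the length trend (-0.02, edgeR adjusted p = 0.31). Over 0 to 2 h the Tnip1 slope passed in neither genotype (edgeR adjusted p = 0.122 in KO and 0.1 in WT). Tnfaip3 had the steepest line, at -1.17 ± 0.13 log2 per h in KO and -1.18 ± 0.13 in WT, and Traf2 followed with -0.95 ± 0.05 in KO and -0.97 ± 0.05 in WT. Tnfaip3 lost most of its transcript within the first hour, which a line does not follow. Nor does a line follow Traf2, Tnip2, Birc2 and Birc3, which dropped only after 0.5 h, or Tnip3, which rose and then fell. A slope difference that did not pass thus does not show equal loss in KO and WT. For 0 of the 10 genes did the KO slope differ from the WT slope by edgeR (0.0598% of all genes did, 6 higher and 2 lower, with 7 and 0 under RLE scaling), while 1 was higher (Traf1) and 1 lower (Tnip3) at an unadjusted p below 0.05. DESeq2 called 1, Traf1 (0.08 log2 per h, DESeq2 adjusted p = 0.0419; 0.06 ± 0.02 and adjusted p = 0.388 by edgeR). With 4 h minus no ActD in place of the line, a comparison chosen after the data were seen, the loss of Traf1 was smaller in libraries labelled KO by 0.34 ± 0.07 (edgeR adjusted p = 0.0296, where 0.211% of all genes were called in that direction). Birc2 had a difference of 0.52 ± 0.13 there (adjusted p = 0.0551), Birc3 0.29 ± 0.08 (0.143), Tnip1 0.27 ± 0.08 (0.222) and Tnfaip3 0.05 ± 0.08 (0.923). Tnip3 had a difference of -0.32 ± 0.13 (0.453) and Traf3 of -0.15 ± 0.13 (0.828), and the other 3 genes lay between -0.02 and 0.19.

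The groups with 4 h of ActD after 3 h of R837 and with 7 h of R837 were taken at the same time after the first R837, with and without transcription in the last 4 h. All 10 genes passed in both genotypes: 2 higher with ActD and 8 lower in KO, where 36.1% and 38% of all genes were (74.1% in either direction), and 3 higher and 7 lower in WT, where 37.3% and 37.9% were (75.3% in either). Tnfaip3 was lower with ActD by log2 -4.72 ± 0.06 in KO and -4.01 ± 0.06 in WT, Traf2 by -3.25 in KO and -3.36 in WT, Birc3 by -2.31 in KO and -2.26 in WT, and Tnip2 by -2.07 in KO and -2.02 in WT. Birc2 was lower by -0.59 ± 0.09 in KO and -1.02 ± 0.09 in WT. Cyld (0.56 in KO, 0.57 in WT) and Traf3 (0.27 in KO, 0.35 in WT, the KO value with an adjusted p of 0.0985 without KO 4 h ActD replicate 1) were higher with ActD relative to the average transcript. Under the ribosomal scaling Traf3 was at -0.18 in KO (edgeR adjusted p = 0.232) and -0.36 in WT (0.0161). Cyld did not pass there, at 0.12 in KO (0.419) and -0.14 in WT (0.337). Tnip3 was lower with ActD in KO (-0.28 ± 0.09) and higher in WT (0.43 ± 0.09; -0.29 under that scaling). That scaling moved all genes by a median of -0.44 in KO and -0.72 in WT, with 2415 genes higher and 7174 lower in KO, in place of 4963 and 5224, and 1464 and 8559 in WT, in place of 5132 and 5216. Of the 10 genes it called 0 higher and 8 lower in KO, and 0 higher and 9 lower in WT.

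The KO difference minus the WT difference, 4 h of ActD minus 7 h of R837, passed for 3 of the 10 genes, 1 higher and 2 lower, where 7.94% and 6.71% of all genes were (14.6% in either direction). It was -0.71 ± 0.08 for Tnfaip3 (edgeR adjusted p = 1.48e-08), -0.71 ± 0.13 for Tnip3 (adjusted p = 0.000128) and 0.43 ± 0.13 for Birc2 (adjusted p = 0.0166). The Birc2 call was lost without WT 4 h ActD replicate 2 (0.33, adjusted p = 0.0815) and on removal of the trend with gene length (0.38, adjusted p = 0.0615). With the ribosomal scaling 2600 genes were higher and 216 lower in this comparison, in place of 1091 and 922. Since the 7 h and 3 h groups enter more than 1 comparison, results of these comparisons share libraries.

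Per kb of the deposited gene width, levels at 3 h of R837 spanned a wide range. In KO the order was Tnip3 at 486.7 ± 43.4 CPM per kb, Tnfaip3 at 261.8 ± 10.5, Tnip1 at 149.6 ± 9.39, Traf1 at 88.0 ± 2.17, Birc3 at 83.3 ± 2.45, Birc2 at 37.3 ± 2.61, Traf2 at 33.5 ± 0.91, Tnip2 at 13.05 ± 0.74, Cyld at 5.97 ± 0.44 and Traf3 at 3.87 ± 0.48 (mean ± SD, n = 3). In WT the order was the same except that Birc3 (61.5 ± 0.71) stood above Traf1 (47.6 ± 1.42) and Traf2 (30.9 ± 0.53) above Birc2 (26.9 ± 0.62).

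Across the 12 group means, genes of the set differed in how alike their patterns were. Tnip2 and Traf2 had a Pearson r of 0.99, and Traf2 and Birc3, and Tnip2 and Birc3, had 0.97 each. All 12 group means, ActD groups included, enter these values. Among 5233 tested genes with a mean CPM of at least 20, the patterns most like that of Tnfaip3 were Pde4b (0.99) and Il10ra (0.99). Those most like Tnip2 were Zc3h12a (0.99) and Dctn4 (0.99), those most like Traf2 Gmeb2 and Poldip3 (1.00 each), and those most like Birc3 Zfp740 and Irak2 (0.99 each). Traf1 was nearest to Mefv (0.98) and to the immunoglobulin gene Igkc (0.97), a B and plasma cell marker. Birc2 was nearest to Lpcat1 and Pdgfb (0.98 each), and Tnip1 to Ralgds (0.98) and Sec23ip (0.97). Cyld was nearest to Man2a1 and Tubgcp4 (0.96 each), Traf3 to Myo10 and Dcbld2 (0.93 each), and Tnip3 to H3f3b (0.93) and Trim30d (0.92). These are descriptions over 12 group means that share libraries and ActD times.

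The genes of the surrounding pathway were counted by list, beginning with the IkB inhibitors, which are NF-kB feedback genes too. Of all genes, 15.2% were called higher and 12.6% lower at 3 h (27.8% in either direction), and 15.5% higher and 15.1% lower at 7 h (30.6% in either). The counts of some lists lay near or below those shares, such as 5 of 20 TNF receptor complex genes at 7 h and 2 of 10 other TRAF genes at 3 h. All 6 tested IkB family genes were higher in KO at 3 h and at 7 h, and the ribosomal scaling called 6 at 3 h and 5 at 7 h. Nfkbie, encoding IkB epsilon, averaged 391.3 ± 12.7 CPM in KO and 257.7 ± 18.2 CPM in WT at 3 h (log2 0.60 ± 0.06), and 237.2 ± 2.88 CPM in KO and 89.3 ± 2.22 CPM in WT at 7 h (1.41 ± 0.06). Nfkbib, encoding IkB beta, was higher by 0.43 ± 0.07 at 3 h and 0.80 ± 0.07 at 7 h. The list median was 0.47 at 3 h and 0.77 at 7 h, beside 0.01 and -0.01 over all genes. Of 9 tested non-canonical NF-kB and TNF receptor superfamily genes, 3 were higher at 3 h, and 5 were higher and 2 lower at 7 h (medians 0.09 and 0.35), and the ribosomal scaling called 5 at 3 h. Nfkb2, encoding p100, was the first of them at both times (0.62 ± 0.09 and 1.31 ± 0.10). Tnfrsf1b, a TNF receptor gene, was higher at 3 h (0.50 ± 0.09), and Tnfrsf11a, encoding RANK, was lower at 7 h (-0.92 ± 0.07).

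Of 20 TNF receptor complex, LUBAC and IKK genes, 8 were higher and 1 lower at 3 h and 5 were higher at 7 h (medians 0.13 and 0.04). Cflar, encoding the caspase-8 regulator c-FLIP, was higher at both times (0.40 ± 0.08 and 0.57 ± 0.08), as were Tab2 at 3 h (0.29 ± 0.06) and Ikbkb at 7 h (0.45 ± 0.06). Leaving out 1 library gave 4 to 9 called genes at 3 h and 2 to 5 at 7 h, with the lowest counts without KO 3 h replicate 1 or WT 3 h replicate 3 and without KO 7 h replicate 2 or WT 7 h replicate 3 (3 without KO 7 h replicate 1), and the ribosomal scaling gave 16 at 3 h and 2 at 7 h. At 7 h the count was 10 with the 6 libraries fitted alone and 3 without the filter. Of 10 other TRAF and TRAF-binding genes, 1 was higher and 1 lower at 3 h and 3 were higher and 1 lower at 7 h (medians -0.03 and 0.12). Traf5 was lower at 3 h (-0.51 ± 0.12), and Traf6 was higher (0.24 ± 0.09, edgeR adjusted p = 0.0463; 0.13 and adjusted p = 0.24 on removal of the length trend). At 7 h Tifab was lower (-1.33 ± 0.16), and Tank (0.55 ± 0.08) and Traf5 (0.52 ± 0.12) were higher. The 3 h count was 4 in place of 2 under the ribosomal scaling, and 1 on removal of the length trend, with the 6 libraries alone, or without KO replicate 2, WT replicate 1 or WT replicate 3. The 7 h count was 7 in place of 4 with the 6 libraries alone. Of 10 A20 and CYLD partners and other deubiquitinases, 3 were higher at 3 h, and 1 was higher and 2 lower at 7 h (medians 0.11 and 0.16). Usp21 (0.44 ± 0.10) and Zranb1 (0.47 ± 0.13) led at 3 h, and at 7 h Otulin, which removes linear ubiquitin chains, was lower (-0.33 ± 0.07) and Spata2, which links CYLD to LUBAC, was higher (0.36 ± 0.12). The count was 1 in place of 3 at 3 h without KO replicate 1 and at 7 h without WT replicate 2, and 7 at 3 h under the ribosomal scaling and at 7 h with the 6 libraries alone. At 7 h the ribosomal scaling called 0 of this list higher and 2 lower, so the Spata2 call was lost. Of 8 other IAP genes and IAP antagonists, 1 was higher and 2 lower at both times (medians 0.00 and -0.06). Birc5, encoding survivin, was lower at 3 h (-0.89 ± 0.10), Htra2 was lower at 3 h (-0.22 ± 0.07; -0.02 under the ribosomal scaling) and 7 h (-0.45 ± 0.07), and Naip2 was higher at 7 h (0.41 ± 0.07). The 3 h count was 1 in place of 3 without KO replicate 1 or WT replicate 1 and on removal of the length trend, and the 7 h count was 6 in place of 3 with the 6 libraries alone.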

How the data were processed

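RNA-seq libraries were made with a TruSeq v2 kit and read as single ends of 50 bases, per the labels' protocols. Reads were aligned with GSNAP to GRCm38, per the submitters' processing notes; the sources used here give no counting program, annotation or strand setting. Per gene and library, the authors deposited a whole-number count, a gene width in bases and an RPKM. The deposited counts entered all tests, the deposited width gave CPM per kb, and the authors' RPKM served only to check the counts, which summed to 90.86 to 91.76% of the total the RPKM values imply. Genes were named by Ensembl identifier through GENCODE M21 (52403 of 52636 named). Libraries held 20.3 to 46.1 M counts; counts of 80 or more for each member limit counting error, and intervals are SE or SD over libraries.

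Counts were scaled by TMM and filtered with filterByExpr, which kept 13748 genes (13378 for slopes), and tested with edgeR 4.0.16 quasi-likelihood F tests in R 4.3.3 (limma 3.58.1), Benjamini-Hochberg adjusted over all genes tested, with a threshold of 0.05. One mean was fitted per group over 36 libraries, with a biological coefficient of variation of 7.48%, and straight lines over hours of ActD on the 30 libraries that began with 3 h of R837. SE is the log2 fold change divided by the root of F. The script was tested on simulated data. Groups came from the labels, and replicate numbers follow accession order, since the labels carry none; whether libraries of different conditions share mice is not given, and p-values may be too small if they do. No replicate pair agreed within sampling noise (chi-square per degree of freedom of 2.23 to 45.6).

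The members and gene lists were chosen with earlier results of these data known. Named genes were the 10 members, per pathway list the 2 with the smallest p that passed at 3 h and at 7 h, per member the 2 with the highest Pearson r, and N4bp1. Alternatives were RLE and ribosomal stable-reference scaling, no filter, a CPM of 1 in 3 libraries, removal of the trend with gene width, a fit of only the groups compared, DESeq2 1.42.0, slopes over 0 to 2 h, and leaving out each library. Promoter sequences are RefSeq's, and protein sequences were not used here. Some 3′ untranslated sites are not reported here.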

Additional observations from a re-analysis of the deposited data

Results flagged for a closer look

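In 2 comparisons the effect differed between KO and WT by the interaction term of the edgeR model. For 7 h minus 3 h of R837, the KO change minus the WT change was 0.7654 for Tnfaip3 (adjusted p = 3.36e-10), 0.4862 for Traf1 (3.6e-06), 0.3412 for Birc3 (0.00225) and 0.3929 for Tnip3 (0.0403) on the log2 scale. In all 19 alternative fits of the Tnfaip3 difference the call was kept, with values of 0.56 to 0.79. Those of Traf1 and Birc3 were lost in 1 of 19 fits, the ribosomal scaling, and that of Tnip3 in 12 of 19. For 4 h of ActD minus 7 h of R837, the KO difference minus the WT difference was -0.7123 for Tnfaip3 (1.48e-08), -0.7105 for Tnip3 (0.000128) and 0.4346 for Birc2 (0.0166). The first 2 kept their call in 19 of 19 fits, with values of -0.77 to -0.44 for Tnfaip3 and -0.77 to -0.43 for Tnip3. That of Birc2 was lost in 2 of 19. The part of N4bp1 transcript levels, which were not lower in the libraries labelled KO after 4 h of ActD, was not tested.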

How the results depend on the processing

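No paired analysis was possible because the labels carry no replicate numbers and do not tie libraries to mice. Each member's value was recomputed in every comparison under each setting. Of these values, 3178 were counted as kept, 79 lost a call, 43 gained one and 20 turned direction. A value that turned direction and passed in neither fit was counted as kept. The 20 touched Cyld, Tnip3, Traf3, Traf1 and Tnip1 within a genotype under ActD, and none KO minus WT. Under the ribosomal scaling, 4 h of ActD minus 7 h of R837 was -0.1753 for Traf3 in KO and -0.3648 in WT, -0.2949 for Tnip3 in WT and -0.1353 for Cyld in WT. Under it, 4 h of ActD minus none was -0.5175 in KO and -0.2883 in WT for Tnip3 and -0.1775 in KO and -0.2198 in WT for Cyld, and slopes were -0.04412 in KO and -0.0887 in WT for Cyld and -0.09669 in WT for Tnip3. Of these values, Traf3 in KO and Cyld in WT against 7 h, Cyld against none and the Cyld slope in KO did not pass. The ribosomal reference was 51 tested genes, 14 of them lower and 1 higher in KO at 3 h under TMM. With the trend with gene length removed, 4 h of ActD minus 7 h of R837 was 0.00123 for Tnip3 in KO and 0.01214 for Traf1 in WT, 4 h of ActD minus none was 0.0009762 for Tnip1 in KO and 0.2995 in KO and 0.4876 in WT for Traf3, and Traf3 slopes were 0.08823 in KO and 0.1205 in WT. Slopes over 0 to 2 h in KO were 0.1934 for Tnip3 and -0.002667 for Cyld.

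The number of members called moved by more than 1.5 times in few settings. For the KO change minus the WT change it was 1 in place of 4 under the ribosomal scaling. For 0.5 h of ActD minus none it was 1 in place of 2 in KO under that scaling and 1 in place of 2 in WT with only the groups compared. Leaving out 1 library gave 1 to 2 there in KO (1 without 0.5 h replicate 3 or 3 h replicate 3) and 1 to 3 in WT (1 without 0.5 h replicate 2). For the slope difference it was 1 in place of 0 with DESeq2 and 1 with 4 h minus none in place of the line. The other comparisons stayed within 1.5 times in every setting run. Log2 fold changes followed gene width across all genes in some comparisons (Spearman -0.36 in KO and -0.35 in WT for 4 h of ActD minus none, -0.36 in KO and -0.38 in WT for slopes, and for KO minus WT 0.30 at 3 h, -0.29 at 1 h of ActD and 0.24 at 4 h); the cause was not tested.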
